A study of Homo sapiens with 6 samples.

Results

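The genes described here are 3 receptors of the EGFR family (EGFR, ERBB2 and ERBB3) and 7 of the ligands that bind this family (AREG, EREG, HBEGF, TGFA, BTC, EPGN and NRG1), followed in T24 cells after knockdown of TRIM28. They were taken from the table of gene counts by symbol, 10 genes of 78932. T24 is an established human bladder carcinoma line. RNA sequencing compared cells transfected with a non-targeting control siRNA (siNC, n = 3) with cells transfected with an siRNA against TRIM28 (siTRIM28, n = 3), TRIM28 being a corepressor protein that silences chromatin and also acts in ubiquitin transfer. Both groups were the same line in the same serum-containing medium with the same transfection reagent, and differed by the siRNA. The sample titles give the line, the siRNA target and a replicate number, and all 6 libraries were treated as 1 batch. The labels do not say which siRNA against TRIM28 was used or how long after transfection the RNA was taken. The counts of siNC replicates 1 and 2 and of siTRIM28 replicates 2 and 3 differed by little more than counting noise (chi-square per degree of freedom 1.08 and 1.22), against 4.17 to 6.25 for the other pairs within a group. The titles do not say whether the libraries of a close pair came from separate cultures. Each was kept as a library of its own. With each close pair summed, the calls of the members were the same, with the edgeR adjusted p of EGFR at 0.0464. The results therefore concern a transient knockdown in 1 line, and the p-values measure the spread between these 6 libraries.

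Receptors of this family sit in the plasma membrane, pair with one another when a ligand binds, and phosphorylate each other to start signalling through the RAS and PI3K pathways. ERBB2 has no known ligand and acts as a partner of the others, while ERBB3 has a weak kinase and signals mainly through its partner. AREG, EREG, HBEGF, TGFA, BTC and EPGN are EGFR ligands, NRG1 binds ERBB3 and ERBB4, and all are made as membrane-bound precursors that proteases of the cell surface release. In urothelial tumours EGFR, ERBB2 and ERBB3 are much studied as growth receptors.

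The libraries held 11712623 to 14018052 counts each, and the control and knockdown ranges overlapped. TRIM28 had 1419, 1393 and 1382 counts in siNC and 130, 96 and 109 in siTRIM28, so its level fell by 91.4% (log2 fold change −3.54, edgeR quasi-likelihood test, Benjamini-Hochberg adjusted p = 1.03e-10). Of 15 urothelial and epithelial marker genes 6 passed the minimum of 10 counts in at least 3 libraries. KRT8 and KRT18, keratins of simple epithelia, had 104 ± 0.619 and 86.1 ± 3.91 CPM in siNC (library-scaled counts, SD, n = 3), while UPK1B and KRT20 had no count in any library and EPCAM, CDH1, GATA3, UPK2, UPK3A, KRT5 and KRT19 were below the minimum. Among the uroplakins, which define mature urothelium, UPK1A passed the minimum, with 17, 15 and 4 counts in siNC and 58, 38 and 34 in siTRIM28 (log2 fold change 1.94, edgeR adjusted p = 0.000548). Most defining markers of mature urothelium were thus at or near 0 in these cells. TP63, KRT7 and KRT8 were also higher in siTRIM28 (log2 fold change 1.01, 0.56 and 0.14, edgeR adjusted p = 0.04998, 0.0126 and 0.0354), while FOXA1 and KRT18 did not reach an adjusted p under 0.05. The TP63 call was lost in 8 of 11 alternative fits and the KRT8 call in 8 of 15. The summed level of the 15 markers was 193 to 200 CPM in siNC and 213 to 221 CPM in siTRIM28. KRT8 and KRT18 made up most of this sum, and its part in the results below was not tested. Of 6 markers of leukocytes, endothelium and fibroblasts CD3E had no count, CD68, a lysosomal protein used to mark macrophages, had 348 ± 2.38 CPM in siNC and 351 ± 12.1 CPM in siTRIM28, and the rest summed to at most 1.27 CPM. In bulk RNA, fewer cells of a kind and less RNA per cell cannot be told apart.

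Among the family, EREG and HBEGF transcripts were higher and EGFR and ERBB2 transcripts were lower after TRIM28 knockdown. EREG rose 1.88-fold and HBEGF 1.44-fold, ERBB2 fell by 36.1% and EGFR fell by 14.1%. These were 4 of the 7 members that passed the count minimum, the others tested being ERBB3, TGFA and NRG1, whereas AREG, BTC and EPGN were too low to test. Across all 18474 genes tested 41.8% were past the same threshold of an adjusted p of 0.05 (21.3% higher and 20.5% lower), so a change past it did not by itself set a gene apart. The median log2 fold change was 0.43 over the 7 tested members, which is the value of ERBB3, and 0.02 over all genes tested. The members went both ways, from −0.65 to 0.91. When the change also had to reach 0.58 on the log2 scale in either direction, 17.0% of all genes passed, and EREG and ERBB2 were the members that did.

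**Figure D1:**
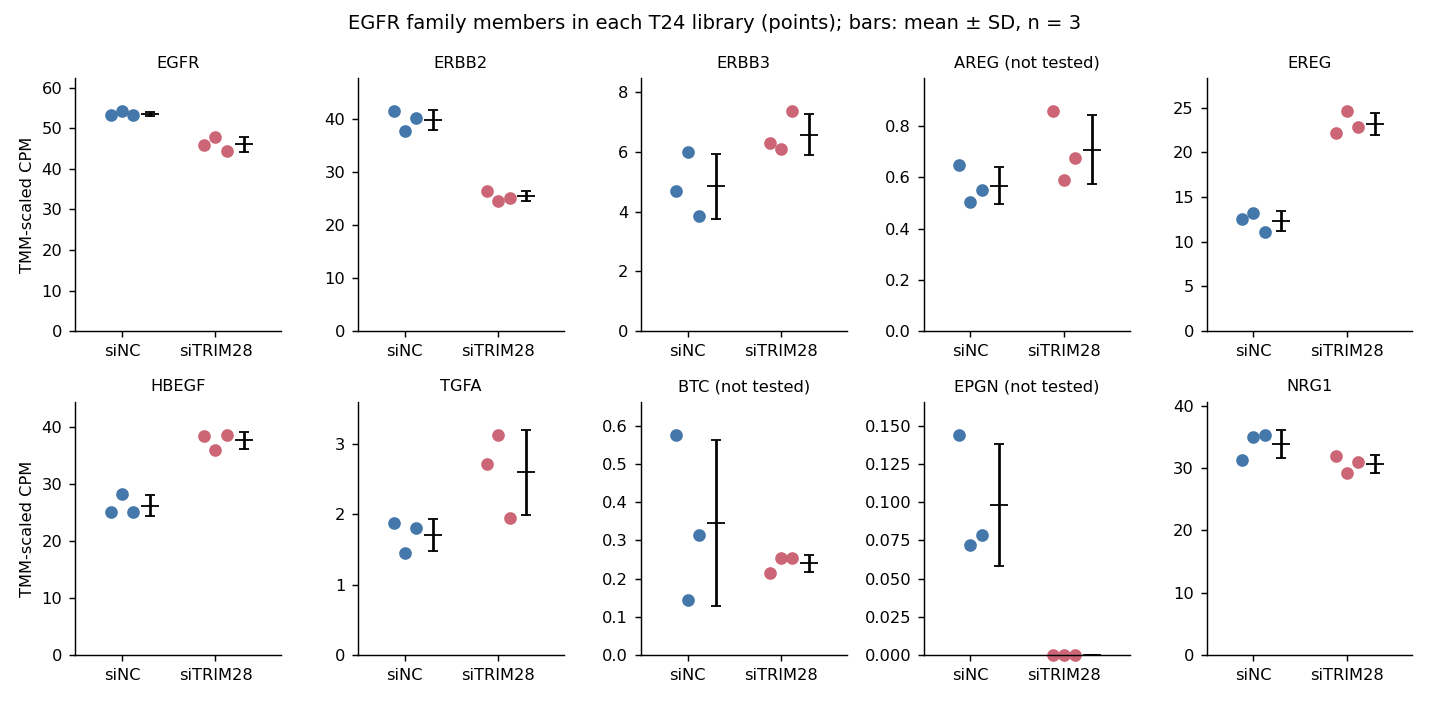
Level of each family member in every library, as TMM-normalized CPM on a separate axis per gene, for siNC and siTRIM28 (points are libraries, bars are the mean and SD, n = 3). EREG lies at 11.1 to 13.2 CPM in siNC and 22.1 to 24.6 CPM in siTRIM28, and ERBB2 moves the other way, from 37.8 to 41.4 CPM down to 24.6 to 26.4 CPM.

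Among the receptors, ERBB2 (ENSG00000141736), on the plus strand of chr17:39687914-39730426 in GRCh38, had the larger fall. ERBB2 encodes the partner receptor also called HER2. Its level was 41.4, 37.8 and 40.1 CPM in siNC replicates 1 to 3 and 26.4, 24.6 and 25.2 CPM in siTRIM28 replicates 1 to 3. Every control library lay above every knockdown library, with a wide gap between them. The means were 39.8 ± 1.84 and 25.4 ± 0.943 CPM (SD, n = 3), a log2 fold change of −0.65 (SE 0.0649, 95% confidence interval −0.79 to −0.50, edgeR adjusted p = 1.11e-05).

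EGFR (ENSG00000146648), the receptor that gives the family its name, lies on the plus strand at chr7:55019017-55205865. Its level was 53.3, 54.2 and 53.4 CPM in siNC and 45.9, 48.0 and 44.3 CPM in siTRIM28. The groups did not overlap, and the controls lay within 1 CPM of each other, but the distance between the groups was small. The means were 53.6 ± 0.486 and 46.1 ± 1.82 CPM, a log2 fold change of −0.22 (SE 0.0571, 95% confidence interval −0.34 to −0.09, edgeR adjusted p = 0.00911).

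ERBB3 (ENSG00000065361), the receptor with little kinase activity of its own, lies on the plus strand at chr12:56076799-56102804. It had 65, 83 and 49 counts in siNC and 88, 72 and 87 in siTRIM28, which is 4.68, 5.99 and 3.84 CPM against 6.28, 6.08 and 7.35 CPM. The groups did not overlap, although the highest control and the lowest knockdown library were almost equal. The log2 fold change of 0.43 (SE 0.171, 95% confidence interval 0.06 to 0.81) did not pass the threshold over all genes (edgeR adjusted p = 0.0622). The call depended on the libraries, since without siNC replicate 2 the log2 fold change was 0.62 with an edgeR adjusted p of 0.0196, and over all 15 alternatives the adjusted p lay between 0.0196 and 0.199.

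Of the ligands, EREG (epiregulin, ENSG00000124882), which binds EGFR and ERBB4, changed most among those that passed the threshold. It lies on the plus strand at chr4:74365145-74384952. The libraries held 12.6, 13.2 and 11.1 CPM in siNC and 22.1, 24.6 and 22.8 CPM in siTRIM28. Every knockdown library was well above every control. The means were 12.3 ± 1.07 and 23.2 ± 1.26 CPM (SD, n = 3), a log2 fold change of 0.91 (SE 0.0809, 95% confidence interval 0.73 to 1.08, edgeR adjusted p = 4.15e-06).

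HBEGF (heparin-binding EGF-like growth factor, ENSG00000113070), a ligand of EGFR and ERBB4, lies on the minus strand at chr5:140332843-140346603. Its level was 25.1, 28.3 and 25.1 CPM in siNC and 38.4, 36.0 and 38.6 CPM in siTRIM28. The groups were again separate. The means were 26.2 ± 1.85 and 37.7 ± 1.46 CPM, a log2 fold change of 0.52 (SE 0.0697, 95% confidence interval 0.37 to 0.68, edgeR adjusted p = 9.71e-05).

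The promoters of the 2 ligands that rose, of EGFR and of AREG, the neighbour of EREG with few reads, are shown to let the windows upstream of these genes be compared. Each is 250 bases that end just before the transcript start in RefSeq GRCh38.p14, written 5′ to 3′ on the strand of the gene, with capitals marking the letters of the motifs searched. The motifs, searched on both strands, were the TATA box as TATAAA, the CCAAT box by those letters, the GC box spelled GGGCGG, the cyclic AMP response element spelled TGACGTCA, the AP-1 site spelled TGACTCA and the ETS core spelled CCGGAA.
EREG, plus strand of chr4:74364895-74365144: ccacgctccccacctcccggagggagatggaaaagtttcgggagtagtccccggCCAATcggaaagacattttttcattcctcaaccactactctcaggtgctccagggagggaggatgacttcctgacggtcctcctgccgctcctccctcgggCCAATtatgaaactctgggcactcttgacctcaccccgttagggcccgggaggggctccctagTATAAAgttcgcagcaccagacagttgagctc
AREG, plus strand of chr4:74444886-74445135: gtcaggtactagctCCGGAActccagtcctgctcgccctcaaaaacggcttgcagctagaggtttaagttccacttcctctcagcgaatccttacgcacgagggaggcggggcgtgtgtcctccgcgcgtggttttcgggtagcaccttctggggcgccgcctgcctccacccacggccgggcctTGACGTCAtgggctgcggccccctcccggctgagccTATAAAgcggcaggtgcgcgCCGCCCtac
HBEGF, minus strand of chr5:140346604-140346853: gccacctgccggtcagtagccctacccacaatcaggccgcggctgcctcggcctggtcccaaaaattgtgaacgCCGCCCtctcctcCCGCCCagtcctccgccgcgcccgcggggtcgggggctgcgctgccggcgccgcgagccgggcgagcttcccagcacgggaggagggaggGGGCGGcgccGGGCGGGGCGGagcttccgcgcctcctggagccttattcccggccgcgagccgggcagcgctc
EGFR, plus strand of chr7:55018767-55019016: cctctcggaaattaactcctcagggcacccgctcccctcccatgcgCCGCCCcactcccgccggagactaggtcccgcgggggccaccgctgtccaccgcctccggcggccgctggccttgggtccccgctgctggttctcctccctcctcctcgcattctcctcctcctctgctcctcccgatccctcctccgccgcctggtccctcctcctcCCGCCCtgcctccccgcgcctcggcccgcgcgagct

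The windows of EREG and AREG each held a TATA box, with its first base at −32 and −29 from the start, and the printed windows of HBEGF and EGFR held none. A second RefSeq start of EGFR, inside the gene, has a window at chr7:55109589-55109838 that is not printed and that held TATA boxes at −146 and −36 and AP-1 sites at −232 and −136. The EREG window also held CCAAT boxes at −196 and −95. The AREG window held an ETS core at −236, a cyclic AMP response element at −65 and a GC box at −9. HBEGF had 5 GC boxes, the last pair of which share a base, and the printed EGFR window had 2. The EREG window lies within ENSG00000304732, a gene of the opposite strand. The ERBB2 window, which is not printed, held a CCAAT box at −243 and ETS cores at −25 and −14. The bases G and C made up 58% of the EREG window, 65.2% of AREG, 76.4% of HBEGF and 73.6% of EGFR, against a median of 58% over all 35116 windows of this length. Of those windows 10.7% held the TATA box, 32.0% the CCAAT box, 42.6% the GC box, 1.65% the cyclic AMP response element, 4.20% the AP-1 site and 14.5% the ETS core. These matches describe the letters of the windows, and the libraries hold no measurement of binding there. RefSeq windows for 8 of the 10 members were used, 10 windows in all.

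TGFA (transforming growth factor alpha, ENSG00000163235), an EGFR ligand, lies on the minus strand at chr2:70447284-70554193. It had 26, 20 and 23 counts in siNC and 38, 37 and 23 in siTRIM28, or 1.87, 1.44 and 1.80 CPM against 2.71, 3.12 and 1.94 CPM. The groups did not overlap in CPM, but siTRIM28 replicate 3 lay close to the controls and held as many counts as siNC replicate 3. The log2 fold change of 0.61 (SE 0.233, 95% confidence interval 0.09 to 1.12) did not pass the threshold (edgeR adjusted p = 0.0563). Without siTRIM28 replicate 3 it was 0.76 with an edgeR adjusted p of 0.0261, and the adjusted p over 15 alternatives was 0.0261 to 0.189.

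AREG (amphiregulin, ENSG00000109321), an EGFR ligand next to EREG, lies on the plus strand at chr4:74445136-74455005. It had 9, 7 and 7 counts in siNC and 12, 7 and 8 in siTRIM28, and the groups overlapped. BTC (betacellulin, ENSG00000174808), a ligand of EGFR and ERBB4 on the minus strand at chr4:74744759-74794523, had 8, 2 and 4 counts in siNC and 3 in each siTRIM28 library, again with overlap. EPGN (epigen, ENSG00000182585), an EGFR ligand on the plus strand at chr4:74308470-74314984, had 2, 1 and 1 counts in siNC and 0 in every siTRIM28 library. A count of 0 allows up to 3 counts per library, so a difference in EPGN was not detectable at this depth. These ligands and EREG stand together in a stretch of 486 kb in the order EPGN, EREG, AREG, BTC, with gaps of 50.2, 60.2 and 290 kb between them. Of 8 annotated genes that lie wholly in the stretch, the 4 that are not ligands had at most 1 count in any library. ENSG00000304732, on the opposite strand, starts within EREG, runs across EPGN and ends outside the stretch, and it had 8 to 29 counts per library. Of the 4 ligands EREG was the one with enough reads to test.

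NRG1 (neuregulin, ENSG00000157168), the ligand of ERBB3 and ERBB4, spans chr8:31639222-32855666 on the plus strand. Its level was 31.2, 35.0 and 35.3 CPM in siNC and 32.0, 29.1 and 30.9 CPM in siTRIM28. The groups overlapped, with siTRIM28 replicate 1 above siNC replicate 1. The means were 33.8 ± 2.24 and 30.7 ± 1.44 CPM, a log2 fold change of −0.14 (SE 0.0703, 95% confidence interval −0.29 to 0.01, edgeR adjusted p = 0.135), and the interval leaves room for a fall of the size seen in EGFR.

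The groups did not overlap in 6 of the 7 tested members, NRG1 being the exception, against 52.0% of all genes tested. For each of those 6 genes the exact two-sided permutation test of log2 CPM gave p = 0.1, the smallest that 3 against 3 libraries allow. The calls of EREG, HBEGF, ERBB2 and EGFR held in all 15 alternatives, with adjusted p-values of at most 0.00051, 0.00153, 0.000713 and 0.0464, apart from the further requirement of a fold change.

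**Figure D2:**
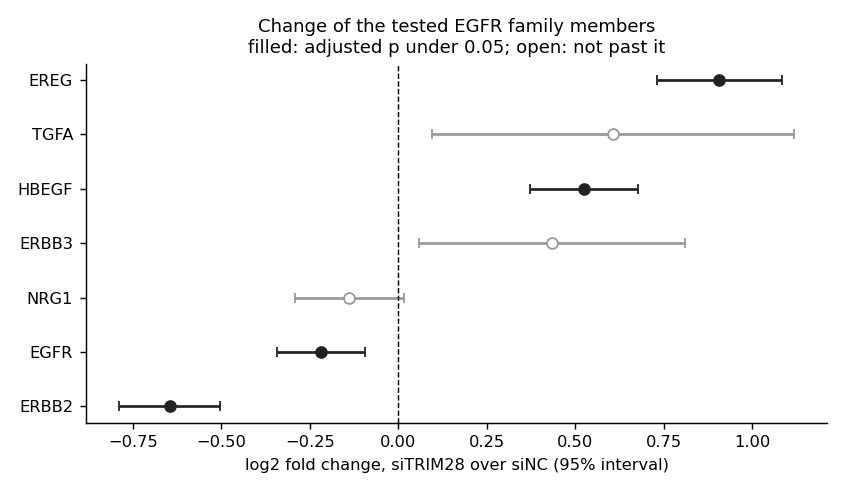
Log2 fold change of siTRIM28 over siNC for the 7 members tested, with 95% confidence intervals from the edgeR fit (horizontal axis in log2 units, 0 marks no difference). EREG at 0.91 and HBEGF at 0.52 lie to the right and ERBB2 at −0.65 and EGFR at −0.22 to the left, while the wide intervals of TGFA and ERBB3 come close to 0.

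Levels of different genes were compared after division by gene length, as CPM per kilobase of gene (RPKM), with the length of all annotated exons of a gene as the deposited table gives it. In siNC, HBEGF stood first at 8.75 ± 0.619 RPKM, followed by ERBB2 at 3.85 ± 0.178, EGFR at 3.36 ± 0.0305, EREG at 2.16 ± 0.187 and NRG1 at 1.58 ± 0.105 RPKM (SD, n = 3). ERBB3 at 0.413 ± 0.0927, TGFA at 0.347 ± 0.0467 and AREG at 0.346 ± 0.0445 RPKM followed, and their libraries overlapped between neighbours. BTC had 0.130 RPKM and EPGN 0.0298 RPKM. In siTRIM28 the order changed among the middle genes. HBEGF stayed first at 12.6 ± 0.490 RPKM, EREG came next at 4.06 ± 0.221 RPKM, and EGFR at 2.89 ± 0.114 RPKM stood above ERBB2 at 2.46 ± 0.0914 RPKM. NRG1 had 1.44 ± 0.0675 RPKM and ERBB3, TGFA and AREG again overlapped as neighbours. Apart from ERBB3 with TGFA and TGFA with AREG, no neighbours in either order overlapped. Both orders rest on the lengths used. In CPM, without division by length, siNC ran from EGFR at 53.6 through ERBB2 at 39.8 and NRG1 at 33.8 to HBEGF at 26.2 and EREG at 12.3 CPM.

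The make-up of the receptor and ligand transcripts was described as shares of summed RPKM, with no test. Among the receptors ERBB2 made up 50.5% in siNC and 41.6% in siTRIM28, EGFR 44.1% and 48.9%, and ERBB3 5.42% and 9.50%. The ERBB2 share was 48.3 to 51.7% over the control libraries and 40.3 to 42.8% over the knockdown libraries, without overlap. Among the ligands HBEGF held 65.6% in siNC and 65.8% in siTRIM28, EREG 16.1% and 21.2%, and NRG1 11.9% and 7.50%. The EREG share was higher and the NRG1 share lower in every siTRIM28 library than in every siNC library. These shares depend on the lengths, and shares of summed CPM were computed as well, after the data were seen. In CPM EGFR made up 54.6% and 59.0% of the receptors and ERBB2 40.5% and 32.5%, while NRG1 led the ligands in siNC with 45.1% against 32.3% in siTRIM28, HBEGF held 34.9% and 39.6%, and EREG 16.4% and 24.4%. The direction of the ERBB2, EGFR, EREG and NRG1 shares between the groups was the same on both scales, and the HBEGF share, nearly equal by RPKM, was higher in siTRIM28 by CPM. Summed ligand RPKM was 13.3 ± 0.665 in siNC and 19.1 ± 0.309 in siTRIM28, and summed receptor RPKM was 7.63 ± 0.106 and 5.91 ± 0.0650. In CPM the ligand sum was 72.2 to 78.7 over the siNC libraries and 93.7 to 96.3 over the siTRIM28 libraries. The receptor sum was 97.4 to 99.4 and 76.9 to 78.6 CPM. Each sum moved in the same direction on both scales. The ligand sum exceeded the receptor sum in both groups by RPKM, but by CPM in siTRIM28 alone. The ratio of EGFR to ERBB2 in RPKM was 0.833, 0.928 and 0.861 in siNC and 1.13, 1.26 and 1.14 in siTRIM28, and in CPM it was 1.29, 1.43 and 1.33 against 1.74, 1.95 and 1.76. Every knockdown library was above every control library on both scales, but the ratio passed 1 between the groups by RPKM alone.

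**Figure D3:**
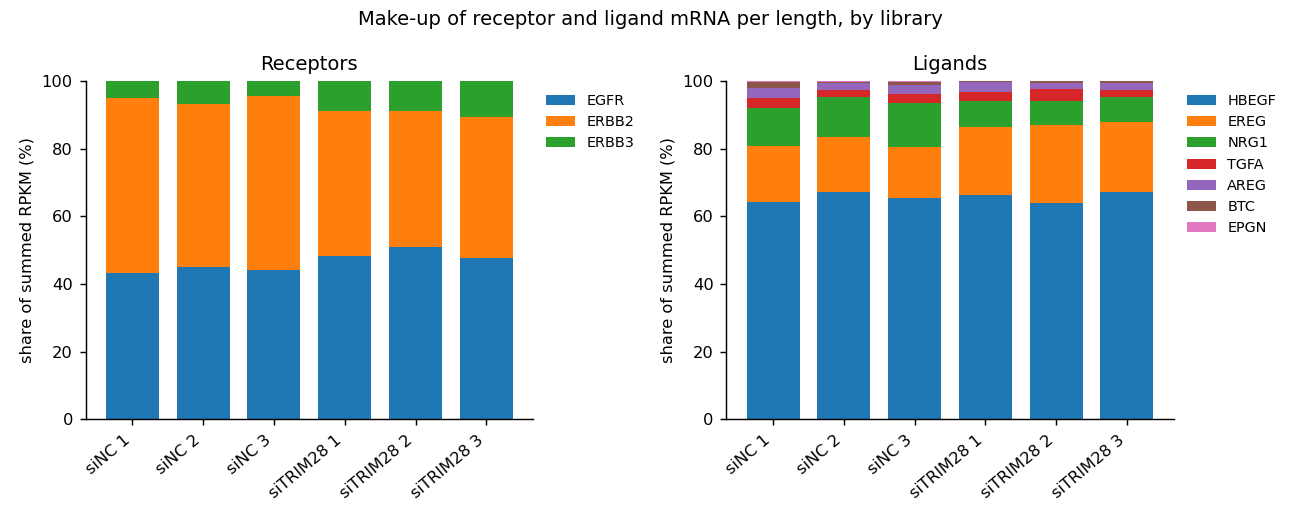
Share of each gene in the summed RPKM of the 3 receptors and of the 7 ligands, in percent, for every library of siNC and siTRIM28. The ERBB2 share of the receptors is 48.3 to 51.7% in siNC and 40.3 to 42.8% in siTRIM28, and the EREG share of the ligands is 15.2 to 16.8% and 20.0 to 22.9%.

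Several members overlap other annotated genes. The library kit keeps strand, but the strand setting of the counting is not given in the sources used here, so reads of a member and of a gene on the opposite strand may not have been told apart. ERBB2 is overlapped on the opposite strand by MIEN1 over 1931 bases, and MIEN1 fell as well, from 23.8 ± 1.65 to 14.6 ± 0.920 CPM (log2 fold change −0.71, edgeR adjusted p = 2.38e-05). ENSG00000305964, which overlaps ERBB2 over 545 bases on that strand, had a log2 fold change of −0.65 (edgeR adjusted p = 0.00932). PGAP3, which overlaps ERBB2 over 8884 bases on that strand, had −0.36 and did not pass the threshold (edgeR adjusted p = 0.308). ERBB2 was thus accompanied by a fall in 2 of the 3 tested genes that overlap it, beside 20.5% called lower among all genes tested. The part of these genes in the ERBB2 value was not tested. EGFR-AS1, antisense to EGFR over 26116 bases, had 18, 13 and 16 counts in siNC and 11, 8 and 5 in siTRIM28, with a log2 fold change of −0.86 at the threshold (edgeR adjusted p = 0.0498). The EGFR-AS1 call was lost in 11 of 14 alternatives, among them those without siNC replicate 1 or 3 or without siTRIM28 replicate 2 or 3, where the highest adjusted p was 0.194. ERBB3 shares 1474 bases of its strand with ENSG00000257411, which had 2005 to 2266 counts in siNC and 1700 to 2394 in siTRIM28, far more than ERBB3. EREG shares 197 bases with ENSG00000304732 on the opposite strand, which held 8 to 29 counts per library and did not pass the threshold (edgeR adjusted p = 0.507), and the same gene covers EPGN over 6515 bases. The genes that overlap NRG1 and TGFA were below the count minimum, and HBEGF, AREG and BTC overlapped no other gene.

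The genes whose log2 CPM followed EGFR most closely over the 6 libraries were CD2BP2, COX11 and KMT2E, each with a Pearson correlation of 0.998, and 820 of 12827 genes compared exceeded 0.95. For EREG they were HIPK3 and KDM4C at 0.999 and BZW1 at 0.998, and 1126 genes exceeded 0.95. These correlations describe 6 libraries that fall into 2 groups, so a difference between the groups in the same direction raises the score.

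Genes that act with the receptors and ligands were taken as 5 lists from the same fit. Among the remaining receptors and ligands of the family ERBB4, EGF, NRG3 and NRG4 were below the count minimum. NRG2, an ERBB3 and ERBB4 ligand, had 27.3 ± 1.72 CPM in siNC and 23.5 ± 2.17 CPM in siTRIM28 with overlapping groups (log2 fold change −0.22, edgeR adjusted p = 0.0477). The NRG2 call was lost in 8 of 15 alternatives, among them those without siNC replicate 1 or 3 or without siTRIM28 replicate 1 or 2, with adjusted p-values up to 0.162.

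Of 12 genes for the release of ligands from the cell surface 10 were tested, 4 rose, 2 fell and 4 did not pass, with a median log2 fold change of 0.11. The share past the threshold was 60% against 41.8% of all genes. ADAM19 and ADAM12, metalloproteases that can cut ligand precursors, rose from 60.8 ± 2.39 to 112 ± 3.75 CPM and from 90.6 ± 4.98 to 137 ± 4.26 CPM (log2 fold change 0.88 and 0.60, edgeR adjusted p = 1.65e-07 and 3.52e-06). RHBDF1, an inactive rhomboid that carries ADAM17 to the surface, rose from 6.64 ± 1.81 to 10.3 ± 0.437 CPM (0.62, edgeR adjusted p = 0.0104). ADAM15 fell from 24.5 ± 0.182 to 17.6 ± 0.644 CPM (−0.48, edgeR adjusted p = 0.00011). ADAM17, the main protease for HBEGF, EREG, AREG and TGFA, is named after its values were seen and rose from 114 ± 3.90 to 134 ± 7.21 CPM (0.23, edgeR adjusted p = 0.00389). RHBDL2 and TIMP3 were below the minimum.

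Of 13 genes that restrain the receptors 12 were tested, 5 rose, none fell and 7 did not pass, with a median of 0.13, and the 41.7% past the threshold was near the 41.8% of all genes. SOCS4, which promotes degradation of EGFR, rose from 40.4 ± 1.72 to 59.9 ± 1.08 CPM (log2 fold change 0.57, edgeR adjusted p = 1.3e-05), and PTPN1, a phosphatase of the receptors, from 148 ± 3.30 to 184 ± 18.1 CPM (0.32, edgeR adjusted p = 0.00146). SOCS5, a relative of SOCS4, and PTPRJ, a receptor phosphatase, had 0.35 and 0.28 (edgeR adjusted p = 0.0333 and 0.014). The call of SOCS5 was lost in 6 of 15 alternatives, with a log2 fold change of at least 0.25 and an adjusted p of up to 0.149, among them those without siNC replicate 2 or 3 or without siTRIM28 replicate 2 or 3. The call of PTPRJ was lost without siNC replicate 1 and without siTRIM28 replicate 2, with an adjusted p of up to 0.0794. Without siTRIM28 replicate 2 the number of these genes called higher was 3, and 1 was called lower. ERRFI1, a feedback inhibitor of EGFR named after its values were seen, had 452 ± 8.73 and 460 ± 7.98 CPM (0.02, edgeR adjusted p = 0.643). CBLC was below the minimum.

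Of 17 adaptors and relays 16 were tested, 2 rose, 6 fell and 8 did not pass, with a median of −0.11 and 50% past the threshold against 41.8% of all genes. GRB2, the adaptor that links the receptors to RAS, fell from 81.4 ± 4.41 to 53.6 ± 2.37 CPM (log2 fold change −0.60, edgeR adjusted p = 9.74e-06). PTPN11, the phosphatase SHP2, fell from 351 ± 4.58 to 245 ± 4.01 CPM (−0.51, edgeR adjusted p = 8.68e-07). VAV2, a relay protein recruited by active receptors, and PIK3CA, the catalytic subunit of PI3K, fell by 0.51 and 0.37 on the log2 scale (edgeR adjusted p = 0.000109 and 0.00113). The number called higher was 1 without siNC replicate 1, without siNC replicate 3 and without siTRIM28 replicate 2. It was also 1 with DESeq2, limma-voom, no count minimum and close pairs summed, and 4 with upper-quartile scaling. GAB2, 1 of the 2 that rose (0.22, edgeR adjusted p = 0.0415), lost its call in 8 of 15 alternatives. GRB7 was below the minimum.

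All 13 genes for receptor uptake and sorting were tested, of which 7 rose, 2 fell and 4 did not pass, with a median of 0.20 and 69.2% past the threshold against 41.8% of all genes. CLTC, the clathrin heavy chain, rose from 149 ± 6.80 to 236 ± 1.18 CPM (log2 fold change 0.66, edgeR adjusted p = 4.2e-07). RAB5A, a GTPase of early endosomes, rose from 58.3 ± 1.42 to 75.9 ± 2.54 CPM (0.38, edgeR adjusted p = 0.000133), and EPN2, an epsin of coated pits, by 0.36 (edgeR adjusted p = 0.00207). TSG101, which sorts receptors for degradation, had a log2 fold change of −0.32 (edgeR adjusted p = 0.00994), with an adjusted p of 0.0624 when the closest replicates were summed. In that setting the number of these genes called higher was 3, and leaving out each library gave 5 to 7. Among the genes that rose, the EPS15L1 call was lost in 9 of 15 alternatives. The calls of HGS and RAB7A were lost in 3 of 15 each.

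**Figure D4:**
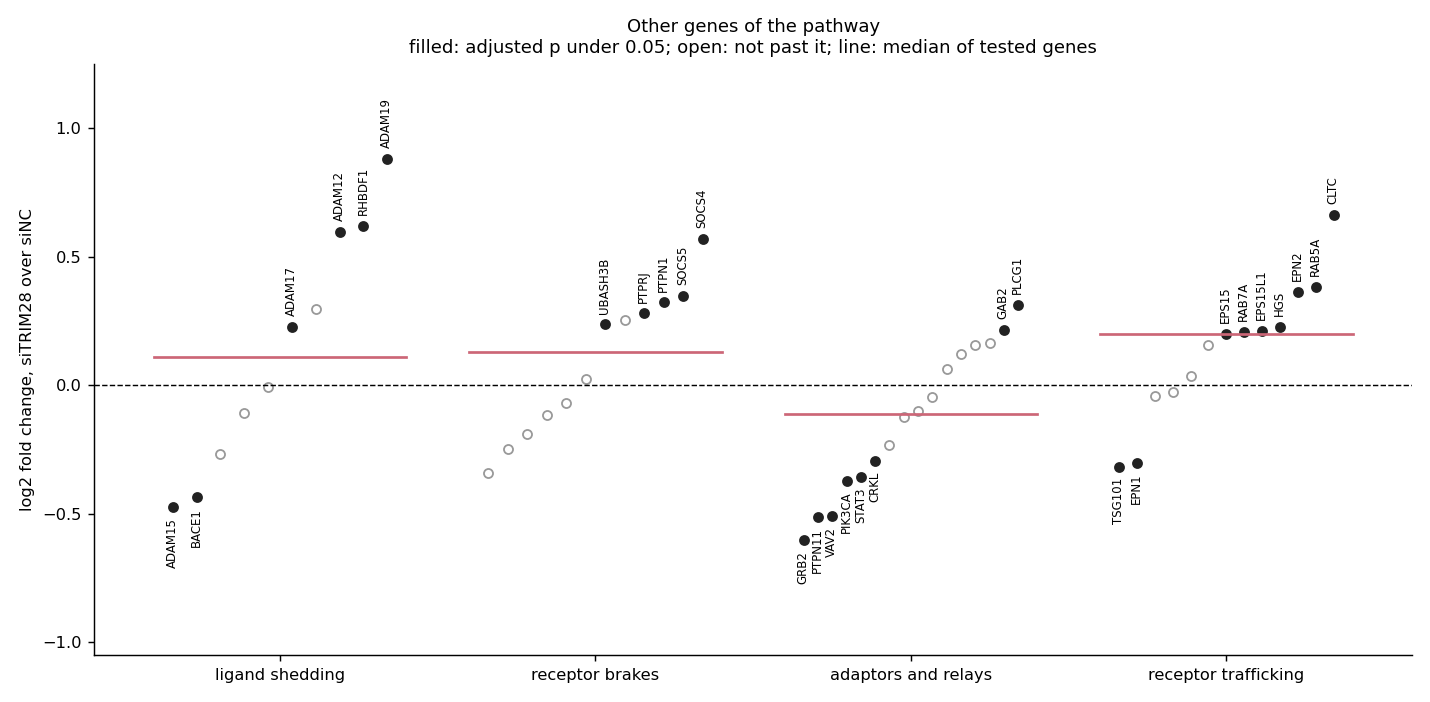
Log2 fold change of siTRIM28 over siNC for every tested gene of 4 of the lists (the list that holds NRG2 is left out), 1 point per gene, filled where the edgeR adjusted p is under 0.05, with the median of each list as a line. The medians lie at 0.11 for ligand release, 0.13 for genes that restrain the receptors, −0.11 for adaptors and 0.20 for uptake and sorting, beside 0.02 for all genes.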

How the data were processed

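The 6 libraries were poly(A)-selected and stranded. The submitters' processing notes name fastp 0.23.1, STAR 2.7.6a, featureCounts and GRCh38. The authors deposited raw read counts for 78932 genes with coordinates and exon lengths, and the annotation release and strand setting are not given in the sources used here. A second deposited table, RPKM of the authors' changed genes, was not used.

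Counts were fitted in edgeR 4.0.16 (R 4.3.3) with TMM scaling, condition as the only term and the quasi-likelihood test. Genes entered the test when 3 or more of the 6 libraries held 10 counts or more, and p-values were adjusted over all 18474 (Benjamini-Hochberg, threshold 0.05). Counts were also simulated for this comparison (18056 genes), as independent libraries with a small share of the genes changed. Changed genes with a mean of at least 100 counts were followed. The fit called 51 of 51 changed by 0.8 on the log2 scale and 35 of 61 changed by 0.4. In the 6 libraries 41.8% of the 18474 genes tested passed the threshold, EGFR at −0.22 among them. Whether the simulated rates hold at that share, or with close pairs of libraries, was not tested. CPM and RPKM use TMM-scaled library sizes, and log2 CPM a prior count of 2. The common biological coefficient of variation was 0.0733. At 11712623 to 14018052 counts per library, 10 counts lie below 1 CPM.

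Every member, TRIM28, overlapping genes and, per list, up to 4 called genes of the largest fold change with a mean of at least 50 counts are named, with the genes below the minimum and the 3 most correlated with EGFR and EREG. Some list genes whose calls depended on the setting are named as well. Members and lists were chosen with earlier results of these data known. Alternatives were other scalings (RLE, upper quartile, total count), DESeq2 1.42.0, limma-voom 3.58.1, other count minimums, a replicate block, leaving out each library, summing close replicates, a fold threshold and levels without length.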

Additional observations from a re-analysis of the deposited data

How the results depend on the processing

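The directions of all 7 tested members held in every alternative fit. ERBB3 passed the threshold with upper-quartile scaling (0.47), limma-voom (0.45) and no count minimum (0.42), and TGFA with upper-quartile scaling (0.64), total-count scaling (0.62) and at least 10 counts in every library (0.61), all as log2 fold changes, so upper-quartile scaling gave 4 members called higher in place of 2. With an absolute log2 fold change of 0.58 also required, 1 member was called higher and 1 lower. Leaving out each library gave log2 fold changes of −0.26 to −0.20 for EGFR, −0.68 to −0.62 for ERBB2, 0.29 to 0.62 for ERBB3, 0.84 to 0.96 for EREG, 0.49 to 0.58 for HBEGF, 0.45 to 0.76 for TGFA and −0.20 to −0.11 for NRG1, with 2 to 3 members called higher and 2 lower, and 13 to 19 list genes called higher and 10 to 11 lower. With siNC replicates 1 and 2 and siTRIM28 replicates 2 and 3, the closest pairs, summed, 11 list genes were called higher in place of 18, with fewer samples in the fit. Without division by length the log2 ratio in siNC was 0.43 in place of −0.20 for EGFR to ERBB2 and −1.09 in place of −2.02 for EREG to HBEGF. Over all genes the calls ranged from 5878 with DESeq2 to 8130 without siTRIM28 replicate 1. The deviations of same-numbered replicates from their group means had correlations of −0.01 to 0.05, and 3 of 6 libraries correlated best with their own number. With 3 libraries per group these values cannot settle whether same-numbered libraries were prepared together. A fit with replicate as a block called 7910 genes in place of 7723, and 2 members higher and 2 lower. Upper-quartile scaling moved the share called higher from 51.1% to 56.6%. AREG, BTC and EPGN reached 10 counts in fewer than 3 libraries and were therefore not tested.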
